A study of Drosophila melanogaster with 12 samples.

Results

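The transcripts described here belong to the machinery that takes a fly cell into and out of mitosis. The rule listed 9 genes: stg, CycA, CycB, CycB3, Cdk1, fzy, fzr, polo and aurA. Of these, 4 had a probe that names the gene, 1 probe each: CycB (probe 1000040104), CycB3 (probe 1000032330), fzy (probe 1000045017) and fzr (probe 1000031295). These 4 stand among 11980 genes named by a probe of their own. No probe used here carried the symbol or gene identifier of stg, CycA, Cdk1, polo or aurA, and these 5 genes were not analysed here.

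Entry into mitosis is driven by the kinase Cdk1 bound to a mitotic cyclin, and string (stg), the fly Cdc25 phosphatase, switches the kinase on. Exit requires destruction of the cyclins by the anaphase promoting complex (APC/C), a ubiquitin ligase that works with an activator, either fizzy (fzy, the fly Cdc20) or fizzy-related (fzr, the fly Cdh1). At gastrulation the cells of the fly embryo divide in groups set by when string is transcribed, and the ventral midline cells form such a group. Many of the other parts, Cyclin B among them, are supplied to the egg by the mother.

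Total RNA came from whole Drosophila melanogaster embryos, 3.5 to 4.5 h old (stage 8 to 9) and kept at 25 °C, in a study of the transcription factor Dichaete at the midline. Females with the simGal4 driver, which is active in midline cells, were crossed to males with a UAS construct, so that all groups carried the driver. The 3 groups EnRep, DichaeteWT and HMG-minus expressed the constructs of those names, and the embryos they were set against expressed UAS GFP. The series design calls the constructs dominant negative, a term not applied here to DichaeteWT, the wild type form by its titles. Each group had 4 biological replicates, each hybridised with GFP embryo RNA on a two-colour array, 12 arrays in all, with the construct in Cy3 on replicates 1 and 2 and in Cy5 on replicates 3 and 4. Because whole embryos were used, midline cells gave only part of the RNA, and fewer cells of a type cannot be told apart from less RNA per cell.

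Every value below is a log2 ratio of construct over GFP, background corrected and loess normalised, unless an intensity is named. A gene was called when its Benjamini-Hochberg adjusted p was below 0.05 in a limma fit of all 14485 probes. The number of arrays limits the precision, and the median SE of a ratio was 0.0966 over all probes. The spot finder accepted 86.8% to 98.3% of spots per array in Cy3 and 71.9% to 92.9% in Cy5. Of 9 measured gastrula stage genes, which included eve, ftz and twi, 3 had spots accepted in both channels of every array, and 88.9% of the spots of the 9 were accepted.

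All 4 mitotic transcripts were clearly detected in construct and in GFP embryos. All 96 of their 96 spots, counting each channel, were accepted, with foreground 4.64 to 163 times the local background. CycB3 was the brightest spot, with a lowest, median and highest median pixel intensity of 4488, 12587 and 15516 in construct embryos and of 7945, 12129 and 14941 in GFP embryos. CycB had 1916, 3176 and 5782 in construct embryos and 1600, 3308 and 5623 in GFP embryos. The activator fzy lay in a like range, with 1788, 3810 and 5192 in construct embryos and 1850, 3963 and 5165 in GFP embryos. The other activator, fzr, was the dimmest of the 4, with 451, 1244 and 1822 in construct embryos and 464, 1089 and 1892 in GFP embryos. The construct and GFP ranges overlapped for each gene. Intensities of different probes are not on a common scale, so this order is one of brightness and not of transcript number.

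**Figure D1:**
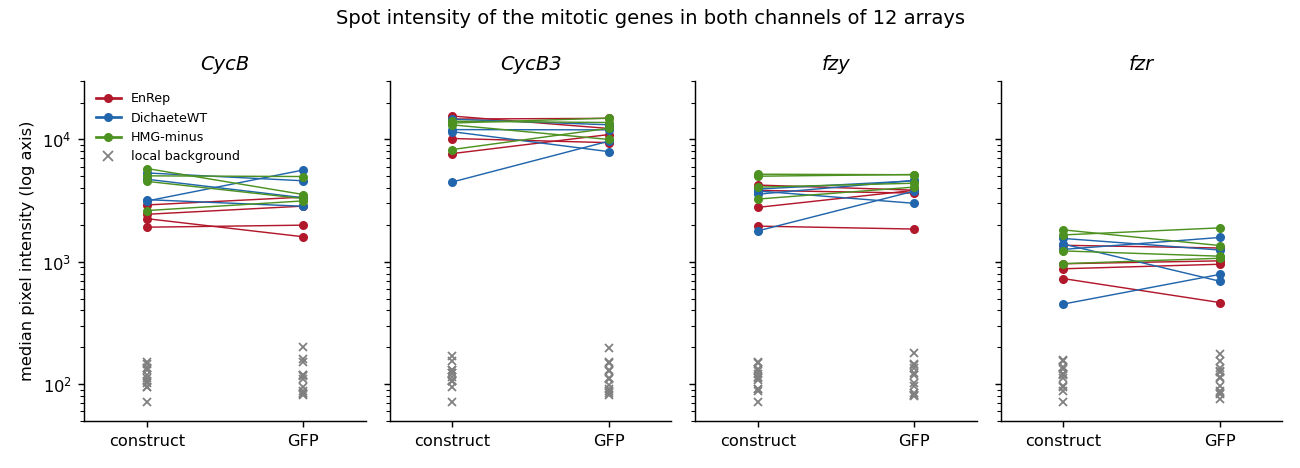
Median pixel intensity (log axis) of the spots of CycB, CycB3, fzy and fzr in the construct channel and in the GFP channel, with a line joining the channels of an array, and local background as crosses. Lines slope both ways in each panel, and every spot stands above its background, the closest being fzr at 4.64 times.

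None of the 4 genes was called in any of the 3 constructs. Over all probes, 0.753% were called in EnRep, 0.863% in DichaeteWT and 0.856% in HMG-minus embryos against GFP, and a count of 0 of 4 is near that background. Before adjustment, limma p-values under 0.05 numbered 0 of 4 in EnRep, 1 of 4 in DichaeteWT (fzy) and 1 of 4 in HMG-minus (CycB), against 14.1%, 15.6% and 13.0% of all probes. The median ratio of the 4 was -0.00 in EnRep, 0.07 in DichaeteWT and 0.04 in HMG-minus, beside 0.01, 0.01 and -0.00 over all probes.

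Cyclin B, the B-type cyclin that activates Cdk1 for entry into mitosis, was nearest to a difference in HMG-minus embryos. Its log2 ratios in HMG-minus embryos over GFP were -0.10, -0.05, 0.79 and 0.50 on replicates 1 to 4. The high values are those of the arrays with the construct in Cy5, and the arrays with the construct in Cy3 lie just below 0. The estimate was 0.28 (SE 0.10, 95% interval 0.06 to 0.50, above 0 on 2 of 4 arrays), a 1.22-fold ratio. It did not pass (limma adjusted p = 0.253). Over 22 alternative settings the value stayed above 0, between 0.18 and 0.34, with adjusted p from 0.0780 to 0.787.

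In EnRep embryos the CycB ratios were -0.27, -0.34, 0.44 and 0.12, again below 0 in Cy3 and above 0 in Cy5. The estimate was -0.01 (95% interval -0.23 to 0.21, limma adjusted p = 0.981), which became 0.08 with print-tip loess and -0.27 with median centring, with adjusted p of at least 0.205 over 22 settings. In DichaeteWT embryos the ratios were -0.00, 0.18, 0.08 and 0.25, the narrowest spread of the 3 groups. The estimate there was 0.13 (95% interval -0.09 to 0.35, limma adjusted p = 0.582), and median centring turned it to -0.01.

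The arrays of the 3 groups overlapped for CycB, and the differences between constructs did not pass. EnRep minus HMG-minus was -0.29 log2 (95% interval -0.61 to 0.02, limma adjusted p = 0.753). EnRep minus DichaeteWT was -0.14 (95% interval -0.45 to 0.17), and HMG-minus minus DichaeteWT was 0.16 (95% interval -0.16 to 0.47). Of all probes, 0.0276% were called in EnRep minus HMG-minus, 0.0207% in EnRep minus DichaeteWT and 0% in HMG-minus minus DichaeteWT. None of the 4 mitotic genes was among them. At an unadjusted limma p below 0.05 there were also 0 of 4 in each difference. Of all probes, 6.85%, 4.46% and 5.27% lay below 0.05 in these differences, in the same order.

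Transcripts that the mother supplies are given beside CycB. In HMG-minus embryos all 6 of the 6 measured probes of the maternal list, for osk, smg, bcd, swa and plu, lay above GFP, with a median ratio of 0.71, against 0.00 in EnRep and 0.06 in DichaeteWT. Of all probes, 49.3% lay above GFP in HMG-minus. Both probes of osk, the determinant of the germ plasm, were called (0.72 each, limma adjusted p = 0.0236 and 0.0386). The calls were lost in 6 and 14 of 22 alternative settings, with adjusted p up to 0.253 and 0.274, among them without HMG-minus replicate 2, 3 or 4 for both probes, while the values stayed between 0.56 and 0.91. No difference between constructs passed for any of the 6 maternal probes. The smallest limma adjusted p was 0.494 for EnRep minus HMG-minus and 0.719 for HMG-minus minus DichaeteWT. The array medians of this list were 0.40, 0.33, 1.08 and 0.87 on HMG-minus replicates 1 to 4, where CycB was below 0 on replicates 1 and 2 and above 0 on replicates 3 and 4. They were 0.36, 0.17, -0.24 and -0.12 on the EnRep replicates, opposite in sign to CycB on each, and ran from -0.28 to 0.42 in DichaeteWT. These array values still hold the difference between dye orientations, which was called for CycB (limma adjusted p = 0.00991). The signs were not compared with that difference removed. Of the 6 maternal probes, 1 had its spots accepted in both channels of every array, and 79.2% of their spots were accepted. The part of maternal RNA in the CycB value was not tested.

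Cyclin B3, which also partners Cdk1 and acts at the metaphase to anaphase step, was close to the GFP level in all 3 constructs. Its ratios in EnRep embryos were -0.09, -0.08, 0.49 and -0.11, so that replicate 3 alone stood above 0. In DichaeteWT embryos they were -0.24, 0.05, 0.07 and 0.22. In HMG-minus embryos they were 0.23, -0.34, -0.02 and 0.06, on both sides of 0 in each dye orientation. The estimates were 0.05, 0.03 and -0.02 (SE 0.11, n = 4 each), with 95% intervals of -0.18 to 0.29, -0.21 to 0.26 and -0.25 to 0.22 and limma adjusted p of 0.874, 0.933 and 0.974. Without replicate 3 the EnRep estimate was -0.07. Median centring made it -0.28, and the DichaeteWT estimate -0.13.

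The APC/C activator fzy, which directs the complex to mitotic cyclins and securin at anaphase, was lower in DichaeteWT embryos than in GFP embryos on all 4 arrays. Its ratios there were -0.26, -0.37, -0.08 and -0.19 on replicates 1 to 4. The estimate was -0.23 (SE 0.07, 95% interval -0.37 to -0.08), a ratio of 0.855 to 1. It did not pass (limma adjusted p = 0.139). It stayed below 0 under all 22 alternative settings, with values from -0.37 to -0.20 and adjusted p from 0.0769 to 0.463.

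In EnRep embryos fzy had ratios of -0.13, 0.03, 0.02 and -0.11, and in HMG-minus embryos -0.22, -0.12, 0.09 and -0.02. Both groups overlapped with the DichaeteWT arrays. The estimates were -0.05 in EnRep (95% interval -0.20 to 0.10) and -0.07 in HMG-minus (95% interval -0.22 to 0.08), with limma adjusted p of 0.804 and 0.757. With median centring the EnRep value was -0.31 (adjusted p = 0.184, in a range over 22 settings of 0.184 to 0.999), outside its interval and close to the DichaeteWT value. The gap to DichaeteWT did not pass: EnRep minus DichaeteWT was 0.18 (95% interval -0.03 to 0.39, limma adjusted p = 0.997) and HMG-minus minus DichaeteWT was 0.16 (95% interval -0.05 to 0.37, limma adjusted p = 0.903). Over 21 alternative settings EnRep minus DichaeteWT came down to 0.05.

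The activator fzr, which keeps the APC/C active after mitosis and through G1, separated by dye orientation within each construct more than between constructs. Its ratios were -0.37, -0.09, 0.39 and 0.10 in EnRep embryos, -0.16, -0.40, 0.71 and 0.30 in DichaeteWT embryos, and -0.28, 0.08, 0.48 and 0.15 in HMG-minus embryos. It was above 0 on 1 of 6 arrays with the construct in Cy3 and on 6 of 6 with the construct in Cy5. The estimates with the dye term were 0.01, 0.12 and 0.11 (SE 0.11, n = 4 each), with 95% intervals of -0.22 to 0.24, -0.11 to 0.34 and -0.12 to 0.34 and limma adjusted p of 0.988, 0.639 and 0.747. The sign in EnRep turned with median centring (-0.17), print-tip loess (-0.01) and the deposited ratios (-0.09).

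**Figure D2:**
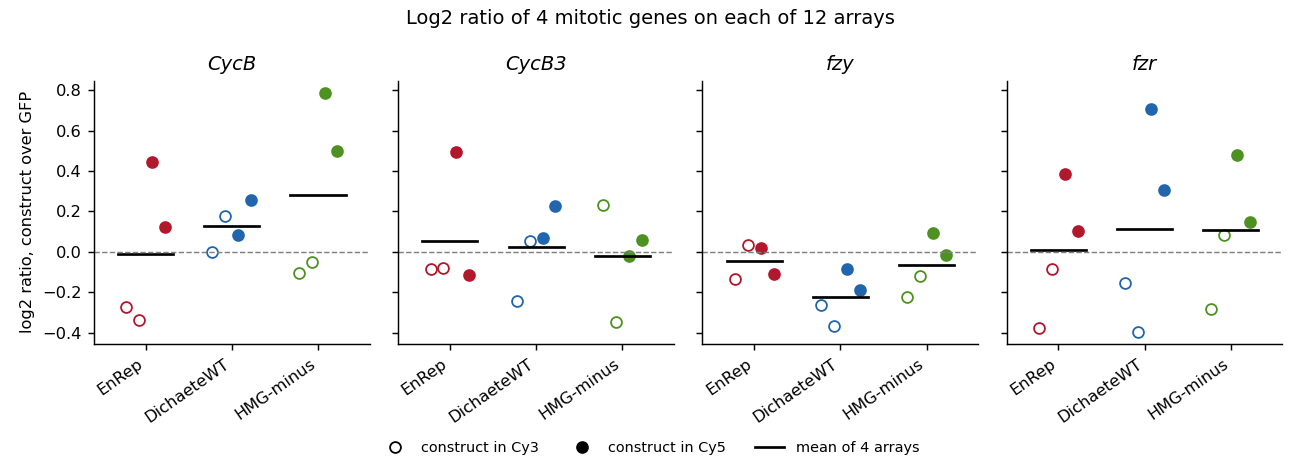
Log2 ratio of construct over GFP (vertical axis) for CycB, CycB3, fzy and fzr, with 1 point per array, open where the construct was in Cy3 and filled where it was in Cy5, and a bar at the mean of 4 arrays. For CycB and fzr the filled points lie above 0 on all 6 arrays, and the DichaeteWT points of fzy all lie below 0.

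The dye gap, the mean ratio with the construct in Cy5 minus that with the construct in Cy3, was 0.46 for CycB and 0.56 for fzr. Both dye terms were called (limma adjusted p = 0.00991 and 0.00449), as were those of 33.1% of all probes. The gaps of 0.20 for CycB3 and 0.13 for fzy did not pass (limma adjusted p = 0.251 and 0.219). CycB was above 0 on 1 of 6 arrays with the construct in Cy3 and on 6 of 6 in Cy5. Each construct had 2 arrays in each orientation, so the gap cancels in the mean of a group. Within an orientation, the mean CycB ratio was -0.08 in Cy3 and 0.64 in Cy5 for HMG-minus, -0.30 and 0.28 for EnRep, and 0.09 and 0.17 for DichaeteWT. For fzy in DichaeteWT the means were -0.31 in Cy3 and -0.14 in Cy5.

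The fit sets a bound on what could have been called. With the residual spread of these probes and the p at which calls ended, CycB would have needed a log2 ratio of 0.48 to 0.49 in either direction, CycB3 one of 0.52, fzr one of 0.50 to 0.51, and fzy, the least variable, one of 0.32 to 0.33. The 95% intervals of the 12 estimates reached no lower than -0.37 (fzy in DichaeteWT) and no higher than 0.50 (CycB in HMG-minus). An estimate smaller than the needed size was not called with 4 arrays per construct. The needed size is a cut-off on the estimate and not the smallest true change that could be detected.

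**Figure D3:**
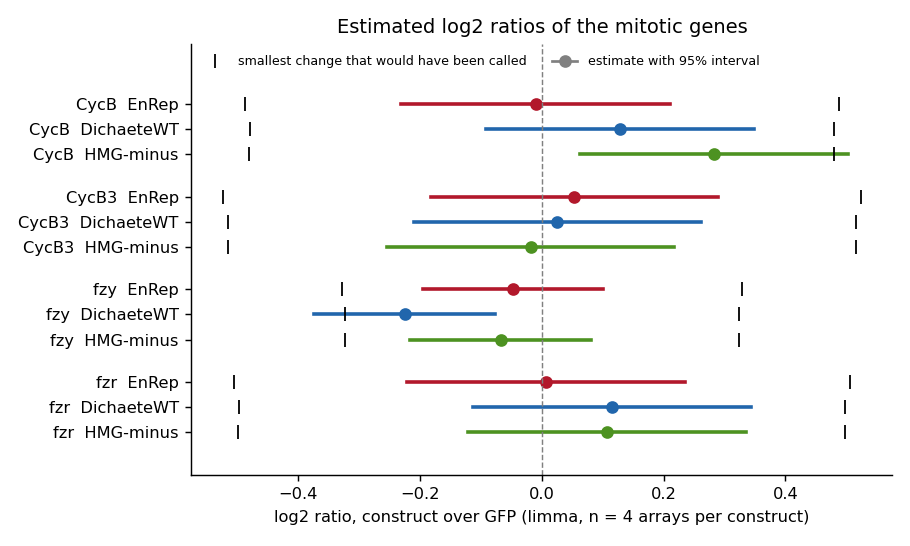
Estimated log2 ratio of construct over GFP with its 95% interval (limma, n = 4 arrays per construct) for each gene and construct, with ticks at the smallest estimated change that would have been called. Every point lies inside its ticks, and the intervals of CycB in HMG-minus and of fzy in DichaeteWT do not reach 0.

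Over the 12 arrays and less the dye term, the 4 genes did not share a pattern. Pearson correlations between pairs ran from -0.21 (CycB3 with fzr) to 0.37 (fzy with fzr), as a description over arrays that share dyes and normalisation. With the dye left in, all 6 pairs were positive, from 0.13 to 0.61. Less the dye term, the genes most like CycB were Rbf2, an Rb family repressor (Pearson r = 0.926, Spearman rank correlation 0.895, n = 12 arrays), kuk, a nuclear envelope protein (r = 0.920, rank correlation 0.902), and trio (r = 0.908, rank correlation 0.916). They were picked as the highest r of all named probes. Less the dye term and without the 2 arrays then farthest from the median of CycB, HMG-minus replicate 3 and DichaeteWT replicate 3, the r values were 0.855, 0.861 and 0.861. In HMG-minus embryos the 3 genes had ratios of -0.10, -0.05 and 0.09, beside 0.28 for CycB.

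The wider cell cycle was read from 6 further lists of 100 genes, of which 78 were measured by 80 probes. A single probe was called in a single construct, that of Klp61F, the kinesin-5 motor that pushes spindle poles apart, which rose in DichaeteWT embryos. That is 1 of 80 probes, or 1.25%, against 0.863% of all probes, and 0 of 80 were called in EnRep and in HMG-minus. At an unadjusted p under 0.05 there were 19, 17 and 13 of the 80 in EnRep, DichaeteWT and HMG-minus, which is 23.8%, 21.3% and 16.3% against 14.1%, 15.6% and 13.0% of all probes. Ratios above 0 numbered 24, 34 and 39 of 80, against 53.1%, 51.8% and 49.3% of all probes. The medians of the 80 were -0.07, -0.03 and -0.00.

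Klp61F had ratios of 0.11, 0.18, 0.74 and 0.77 in DichaeteWT embryos, above 0 on all 4 arrays and higher with the construct in Cy5. In EnRep embryos they were -0.34, -0.23, 0.60 and 0.14, and in HMG-minus embryos -0.01, -0.23, 0.32 and 0.25, so the groups overlapped. The estimate in DichaeteWT was 0.45 (SE 0.08, n = 4, limma adjusted p = 0.0308), beside 0.04 in EnRep and 0.08 in HMG-minus. The differences did not pass (EnRep minus DichaeteWT -0.41, adjusted p = 0.997; HMG-minus minus DichaeteWT -0.37, adjusted p = 0.800). The call was lost in 12 of 22 alternative settings, among them leaving out any DichaeteWT array or HMG-minus replicate 3 or 4, while the value stayed between 0.37 and 0.47.

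**Figure D4:**
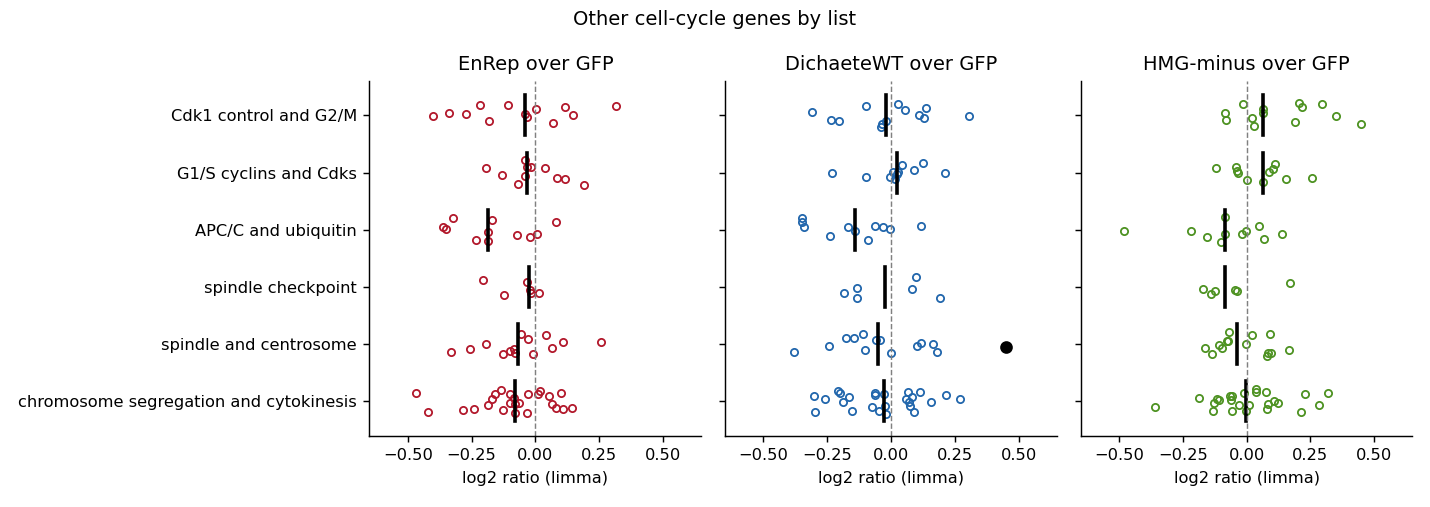
Log2 ratio of construct over GFP (horizontal axis) of each measured probe of 6 cell-cycle lists (rows) in 3 constructs (panels), with list medians as black bars and the called probe filled. Klp61F at 0.45 in DichaeteWT is the only filled point. The APC/C medians lie below 0 in all 3 panels, as do those of the spindle checkpoint, spindle and centrosome, and segregation lists.

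The complex that fzy and fzr activate was measured through 11 of its 14 listed subunits, partners and inhibitors. None was called in any construct. In EnRep, DichaeteWT and HMG-minus, 9, 10 and 8 of the 11 lay below 0. Over all probes, 53.1%, 51.8% and 49.3% lay above 0. The list medians were -0.18, -0.14 and -0.09, against 0.01, 0.01 and -0.00 for all probes, and the array medians were below 0 on 12 of 12 arrays, from -0.34 to -0.03. Other cell-cycle lists also had medians below 0 in all 3 constructs. The spindle checkpoint list had -0.03, -0.02 and -0.09, and the spindle and centrosome list -0.07, -0.05 and -0.04. The segregation and cytokinesis list had -0.08, -0.03 and -0.00. The APC/C medians stayed below 0 in all 3 constructs without background correction, with the smaller offset, with median centring, with print-tip loess and with the deposited ratios. With median centring the APC/C list did not stand apart in EnRep. Its median there was -0.22, beside -0.25 for spindle and centrosome and -0.24 for segregation. The G1/S list had -0.22, the spindle checkpoint list -0.20 and the list of Cdk1 control genes -0.14. Print-tip loess called 1 of the 11 APC/C genes, in HMG-minus, where it called 380 of all 14485 probes.

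That gene was vih, the ubiquitin-conjugating enzyme that serves the APC/C. Its ratios in HMG-minus embryos were -0.13, -0.01, -0.98 and -0.80, the low values again on the Cy5 arrays, opposite in sign to CycB there. The dye term of vih was called (-0.25 log2, limma adjusted p = 0.0121), with a sign opposite to that of CycB. The HMG-minus estimate of vih was -0.48 (SE 0.11, limma adjusted p = 0.0795), with -0.36 in EnRep (adjusted p = 0.183) and -0.09 in DichaeteWT (adjusted p = 0.736). With print-tip loess the HMG-minus value was -0.52 (adjusted p = 0.0360), and over 22 alternative settings its adjusted p ran from 0.0279 to 0.433, with 3 of them calling it. Those 3 were print-tip loess, the HMG-minus arrays alone, and the fit without EnRep replicate 4. They called 380, 248 and 238 of all probes in HMG-minus, against 124 in the main fit. Among the core subunits, mr, Cdc23 and ida had ratios of -0.35, -0.32 and -0.23 in EnRep and of -0.35, -0.34 and -0.35 in DichaeteWT, with limma adjusted p from 0.137 to 0.348. In HMG-minus they were -0.09, -0.16 and -0.22. APC4 and APC10 had -0.17 and -0.18 in EnRep, -0.17 and -0.06 in DichaeteWT, and -0.09 and -0.02 in HMG-minus. Other subunits lay near 0, with Cdc27 at 0.08, -0.00 and -0.00 and APC7 at -0.07, -0.03 and 0.14 in EnRep, DichaeteWT and HMG-minus. Cdc16 was -0.24 in DichaeteWT (adjusted p = 0.117), with -0.02 in EnRep and 0.05 in HMG-minus. Rca1, the inhibitor of the form with fzr, was -0.18, -0.14 and -0.10, and cort, the female germline relative of fzy, was 0.00, 0.12 and 0.07.

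The genes that set Cdk1 activity were represented by 13 of 20. None was called, and the smallest adjusted p was 0.0688, for mei-41, the fly ATR checkpoint kinase, in EnRep. Its EnRep ratios were -0.61, -0.95, 0.17 and -0.21, with an estimate of -0.40, and it was -0.31 in DichaeteWT (adjusted p = 0.122). Over 22 alternative settings the EnRep value ran from -0.50 to -0.16, with adjusted p from 0.0091 to 0.663, and 2 of them called it. Of the background, normalisation and deposited-ratio settings, only print-tip loess called a gene of this list in EnRep. That setting called 274 of all probes in EnRep, against 109 in the main fit. Cks30A, a small subunit that docks Cdk1 to its substrates, was above 0 on all 4 DichaeteWT arrays at 0.38, 0.14, 0.37 and 0.33 (estimate 0.30, limma adjusted p = 0.0834), and also on all 4 HMG-minus arrays (estimate 0.29, adjusted p = 0.105). The Cdc25 phosphatase twe, the germline relative of string, was above 0 on all 4 HMG-minus arrays at 0.31, 0.47, 0.45 and 0.56 (estimate 0.45, limma adjusted p = 0.107). In HMG-minus 10 of the 13 lay above 0, with a median of 0.07, against 5 in EnRep (median -0.04) and 6 in DichaeteWT (median -0.02). Of all probes, 49.3% lay above 0 in HMG-minus, 53.1% in EnRep and 51.8% in DichaeteWT. The plu gene of the pan gu kinase complex is counted both here and in the maternal list, with 0.35 in HMG-minus.

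The remaining lists held no further call. Of the G1/S genes, 11 of 12 were measured, and CycD in HMG-minus had the smallest adjusted p (0.26, limma adjusted p = 0.121), followed by E2f1 (0.21, adjusted p = 0.146) and CycH (-0.23, adjusted p = 0.227), both in DichaeteWT. Of the spindle checkpoint genes, 6 of 9 were measured, with Zwilch at -0.20 in EnRep, Bub1 at 0.19 in DichaeteWT and mad2 at -0.13 in DichaeteWT (adjusted p = 0.312, 0.358 and 0.404). Of the segregation and cytokinesis genes, 23 of 25 were measured. The securin gene pim, whose protein is a substrate of fzy, had 0.27, 0.30, 0.38 and 0.32 on the HMG-minus arrays (estimate 0.32, limma adjusted p = 0.0875). Over 22 alternative settings the value ran from 0.13 to 0.36, and 1 of them called it. The kinetochore gene Nuf2 was -0.28 in EnRep (adjusted p = 0.0905), and Cenp-C, of the inner kinetochore, was 0.28 in HMG-minus (adjusted p = 0.115) and 0.27 in DichaeteWT (adjusted p = 0.112).

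Markers of cell type gave no call beside these values. The neural progenitor list (11 of 11 measured) had a median of -0.00 in EnRep embryos, -0.01 in DichaeteWT embryos and -0.03 in HMG-minus embryos. The midline list (7 of 11) had -0.00, 0.10 and -0.01, and the gastrula list (9 of 13) -0.07, -0.01 and -0.12. Single genes of these lists lay further from 0. The neuroblast adaptor gene mira was -0.53, -0.54 and -0.40 in EnRep, DichaeteWT and HMG-minus (limma adjusted p = 0.0814, 0.0719 and 0.183), and 2 of 22 alternative settings called it in DichaeteWT. Its means with the construct in Cy3 were -0.91, -1.09 and -0.73, against -0.16, 0.01 and -0.07 in Cy5. Of the 11 neural progenitor genes, 5, 5 and 4 lay above 0 in the 3 constructs. The pair-rule gene eve was 0.36 in HMG-minus (adjusted p = 0.0624), and 3 of 21 called it there. In DichaeteWT the mesoderm gene twi was -0.48 (adjusted p = 0.0901), and 1 of 22 called it. Among midline genes, Tl was 0.32, 0.32 and 0.33 and comm -0.27, -0.29 and -0.21 in the 3 constructs, with adjusted p from 0.212 to 0.446. The means of Tl in EnRep, DichaeteWT and HMG-minus were 0.93, 0.35 and 0.61 with the construct in Cy3. With the construct in Cy5 they were -0.28, 0.29 and 0.06. Late embryo genes, which encode cuticle and muscle proteins, differed more between arrays of 1 group than the other marker lists did. Of their 9 probes 3 were accepted in both channels of every array, with 77.8% of spots accepted, so some of these ratios come from spots that the spot finder did not accept. Their medians were -0.66, -0.58, -0.76 and 1.46 on EnRep replicates 1 to 4, 0.62, 1.13, -0.76 and -0.998 on DichaeteWT replicates, and -0.19, 0.12, -1.15 and -0.41 on HMG-minus replicates. EnRep replicate 4 was the highest of the 12 arrays. Without it the EnRep estimates were 0.03 for CycB, 0.15 for CycB3, -0.00 for fzy and 0.08 for fzr. Whether embryo age moved the mitotic genes was not tested.

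**Figure D5:**
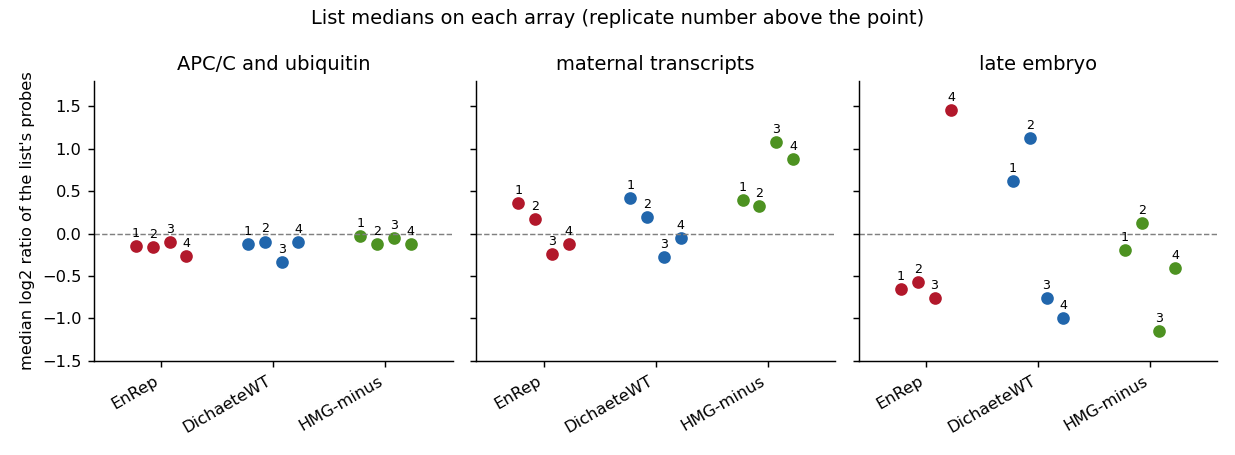
Median log2 ratio of construct over GFP (vertical axis) of the probes of the APC/C, maternal and late embryo lists on each array, with 1 point per array and the replicate number above it. The APC/C medians are below 0 on all 12 arrays, the maternal medians are above 0 on all 4 HMG-minus arrays, and the late embryo medians lie on both sides of 0 in every group.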

How the data were processed

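RNA of 12 construct samples was measured on 12 two-colour arrays against GFP embryo RNA. Per the file headers, each array file holds the median pixel intensity of each spot and of its local background for both dyes, not normalised. The value table holds the authors' deposited log2 ratios, used as an alternative. Their medians per array were -0.034 to 0.019, and they ran as construct over GFP when set against the raw ratios of bright spots. Their background correction and normalisation are not given in the sources used here. The submitters' processing notes name limma.

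In R 4.3.3 with limma 3.58.1, intensities were corrected by normexp (offset 50) on all 18240 spots. The 14569 spots of the value table were kept, normalised by global loess per array, turned to construct over GFP, and averaged per probe (14485 probes, 42 with more than 1 spot). A single gene symbol is given for 12574 probes, several for 96 and none for 1815, and 11928 matched a RefSeq gene table by identifier. Names come from the platform annotation. The array files name no genome build, and no coordinates or sequences are given.

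One limma model with a mean per construct and a dye term (+1 for the construct in Cy5, -1 in Cy3) was fitted to all arrays, with empirical Bayes variances (8 residual and 4.64 prior degrees of freedom). P-values were two-sided. GFP embryo RNA is the other channel of each array, and no slide holds more than 1 array.

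The members and gene lists were chosen with earlier results of these data known, so they give no independent support. Named genes were every member, and from each other list all called probes or else up to 3 with the smallest p. For likeness, the 3 probes with the highest r to CycB were named, while the same could not be done for stg. The other APC/C genes and plu were named after their values were seen. Alternatives changed background correction, offset, normalisation, values, dim probes, dye term, arrays fitted, replicate block and variance prior, and left out each array in turn.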

Additional observations from a re-analysis of the deposited data

Results flagged for a closer look

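Of 102 sets of 4 arrays checked for an array far from the others, 4 had such an array. For independent sets from a normal distribution, chance gives about 1 in 20. Here the dye difference was left in the values and the sets share the same 12 arrays, so that rate may not hold. CycB3 stood at 0.492 on EnRep replicate 3, against -0.114 to -0.078 on the other 3 EnRep arrays. The APC/C subunit gene mr stood at -0.178 on EnRep replicate 3, against -0.433 to -0.394 on the others, and at 0.087 on DichaeteWT replicate 4, against -0.530 to -0.450 on the others. The cuticle gene TwdlM stood at 1.42 on EnRep replicate 4, against -1.09 to -0.859 on the others, and its spots were accepted in both channels on only 2 of 12 arrays.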

How the results depend on the processing

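The number of mitotic genes called was 0 of 4 in all 6 comparisons under all 129 alternatives that could be computed, while the number of all probes called varied. It was 109, 125 and 124 in EnRep, DichaeteWT and HMG-minus against GFP, and became 274, 477 and 380 with print-tip loess, 9, 6 and 9 with a trended and robust variance, 29, 25 and 23 without the dye term, and 4, 63 and 248 when each construct was fitted on its own arrays. Higher and lower calls split 62 to 47, 55 to 70 and 61 to 63, and 34 to 85, 30 to 82 and 35 to 41 with median centring. Leaving out 1 array gave 21 to 202, 16 to 235 and 17 to 238 calls. Of 516 recomputed member values, 44 changed sign and none became a call. With median centring these were CycB in DichaeteWT (-0.0124), CycB3 in EnRep (-0.278) and DichaeteWT (-0.128), and fzr in EnRep (-0.168). Of the differences, CycB3 became -0.150 in EnRep minus DichaeteWT, 0.0287 in HMG-minus minus DichaeteWT and -0.179 in EnRep minus HMG-minus, fzy -0.172 in EnRep minus HMG-minus, and fzr 0.0504 in HMG-minus minus DichaeteWT. With print-tip loess they were CycB (0.0815), CycB3 (-0.0062) and fzr (-0.0097) in EnRep, CycB3 in EnRep minus DichaeteWT (-0.0108) and fzy in EnRep minus HMG-minus (-0.0216). With the deposited ratios they were CycB3 in EnRep (-0.180) and DichaeteWT (-0.0282), fzr in EnRep (-0.0856), CycB3 in EnRep minus DichaeteWT (-0.152) and EnRep minus HMG-minus (-0.117), fzy in EnRep minus HMG-minus (-0.115) and fzr in HMG-minus minus DichaeteWT (0.0199). The cause was not tested. Leaving out 1 array at a time, CycB in EnRep ranged from -0.0943 to 0.0264, CycB3 from -0.0745 to 0.153 in EnRep, -0.0216 to 0.0894 in DichaeteWT and -0.150 to 0.0669 in HMG-minus, and fzr from -0.0625 to 0.0758 in EnRep and -0.0023 to 0.203 in DichaeteWT. The differences of CycB3 ranged from -0.0999 to 0.128 (EnRep minus DichaeteWT), -0.175 to 0.0416 (HMG-minus minus DichaeteWT) and -0.0559 to 0.203 (EnRep minus HMG-minus), that of fzy from -0.0346 to 0.0671 (EnRep minus HMG-minus), and those of fzr from -0.196 to 0.0092 (EnRep minus DichaeteWT) and -0.104 to 0.109 (HMG-minus minus DichaeteWT). Replicate numbers were checked as pairs, on deviations from the group means and the dye term. Same-numbered arrays correlated at -0.64 to 0.24 over 12 pairs, with 2 over 0.1. A differently numbered pair reached 0.67 (EnRep replicate 4 with DichaeteWT replicate 2). Because dye orientation follows the replicate number, this check cannot show whether same-numbered arrays share more than a number. With the replicate number as a block, 0 of 4 mitotic genes and 53, 39 and 62 of all probes were called. Of the other list genes named, 21 recomputed values became calls and 32 lost a call, none with a change of sign. For the Cdk1, segregation, neural progenitor and gastrula lists against GFP, print-tip loess alone gave calls among the background, normalisation and deposited-ratio settings.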
